A study of Mus musculus with 6 samples.

Results

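The subunits of oxidative phosphorylation were examined in laser-captured cells of the ganglion cell layer of the mouse retina, 6 hrs after the optic nerve had been crushed. Genes were chosen by their symbols in the array annotation, namely those beginning with Nduf (complex I), Sdh (complex II), Uqcr (complex III), Cox4 to Cox8 (complex IV) and Atp5 (complex V). The symbols gave 90 genes, and 89 of the 15103 genes kept on the arrays belonged to them. One gene, Cox7b2, had a mean intensity of 25.3, under the minimum of 40, and the gene kept nearest to it, Cox8b, had 46.8. Of the 89 genes, 80 encode subunits: 35 in complex I, 4 in complex II, 8 in complex III, 16 in complex IV and 17 in complex V. The other 9 are 8 assembly factors of complex I (Ndufaf1 to Ndufaf8) and Ndufa4l2, a relative of a subunit, and they were counted apart. Each gene is given by its brightest probe set.

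The crush group was 3 eyes of male C57BL/6J mice whose optic nerve had been crushed for 10 sec. The control group was the 3 uninjured eyes, on the other side of animals that had a nerve crushed. About 6000 cells were outlined and laser-captured per eye, and about 60 ng of total RNA was amplified over more than 1 round and hybridised to 1 Affymetrix array per eye. All eyes were taken 6 hrs after the crush, and the age of the mice was not given in the sources used here.

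Oxidative phosphorylation is the chain of inner mitochondrial membrane complexes that turns the oxidation of NADH and succinate into ATP. Complexes I and II pass electrons to coenzyme Q, complex III to cytochrome c, and complex IV to oxygen, while complexes I, III and IV pump protons that drive the ATP synthase, complex V. All but a few of the subunits are encoded in the nucleus. Retinal ganglion cells fire steadily and have long unmyelinated axon segments rich in mitochondria, and inherited defects of complex I damage these cells in Leber hereditary optic neuropathy.

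RGC markers were present in the captured layer. Of 18 RGC markers, 16 were kept, and their summed intensity ranged from 63749 to 79590 in crush eyes and from 70477 to 72399 in control eyes. Pou4f2 and Rbpms2 were not among the genes kept. Pou4f1, a transcription factor of RGCs, averaged 7567 in crush and 6919 in control eyes. Most of the list went the other way. Of the 16 kept RGC markers, 6 had a log2 fold change (crush over control) above 0 and 10 below 0. Their median was -0.055, and 54.3% of all genes were below 0. Markers of other retinal cells were also present: the summed intensity of 12 kept rod markers was 65012 to 73866 in crush eyes and 47554 to 79090 in control eyes. In such samples fewer cells of a type and less RNA per cell cannot be told apart. The arrays also differed in RNA ends, with 3′ to 5′ signal ratios of Actb of 7.21 to 10.5 in crush and 6.65 to 8.80 in control eyes. Crush array 2 was the dimmest, its median intensity being 131 against 143 and 154 on the other crush arrays and 141 to 143 on control arrays.

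No gene of oxidative phosphorylation passed the test 6 hrs after crush. With limma's paired test, 0 of 89 genes had an adjusted p under 0.05, and the adjusted p-values ranged from 0.642 to 0.998. At an unadjusted p under 0.05, hereafter called nominal, 0 of 89 were higher and 0 were lower after crush. Of all 15103 genes, 417 (2.76%) were nominally higher and 343 (2.27%) nominally lower, and none of these passed the adjustment either. Nominal values were rarer at high signal, and 69 of the 89 genes had a mean intensity of 1000 or more. Among all 5927 genes of 1000 or more, 59 were nominally higher and 27 nominally lower. The methods' t-test on linear intensities gave 2 genes nominally higher (Ndufa13 and Ndufs7) and 2 nominally lower (Atp5mpl and Uqcr10), with a smallest adjusted p of 0.818. Over all 15103 genes that test gave 386 nominally higher (2.56%) and 352 nominally lower (2.33%). Only the p-value part of the methods' rule was applied, without its limits on fold and intensity difference.

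The log2 fold changes (crush over control) of the 80 subunits ran from -0.46 for Cox8c to 0.39 for Atp5g1, with a median of -0.054 against -0.020 for all genes. Of the subunits, 19 had values above 0 and 61 below 0. Below 0 were 8197 of all 15103 genes (54.3%), and 56.9% of the genes with a mean intensity of 1000 or more. The subunits' split moved with the scaling of the arrays. After quantile normalization 51 subunits were below 0 (median -0.015), and 66 after the arrays were scaled to the same median (median -0.098). Over all genes the nominal counts also moved, with 410 higher and 547 lower after quantile normalization and 303 higher and 700 lower after median scaling. The median of all genes was -0.020 after quantile normalization and -0.064 after median scaling, so the subunits lay below the median of all genes in the deposited scale and after median scaling, and above it after quantile normalization.

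The design allowed narrow limits for most of these genes. The 95% intervals lay within 2-fold (log2 of ±1) for 86 of 89 genes, all but Ndufb4, Cox6b2 and Cox8c. They lay within 1.5-fold for 72 of 89 genes. The intervals reached from 0.34 to 0.92 log2 units to each side of the value, and in this fit smaller changes were not nominal. That limit depended on the fit as well as on the 3 pairs. For 72 of 89 genes limma raised the residual SD towards that of all genes (prior SD 0.21). Without an intensity filter, Atp5mpl at -0.19 had an unadjusted limma p of 0.0055, although no member passed the adjustment there.

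**Figure D1:**
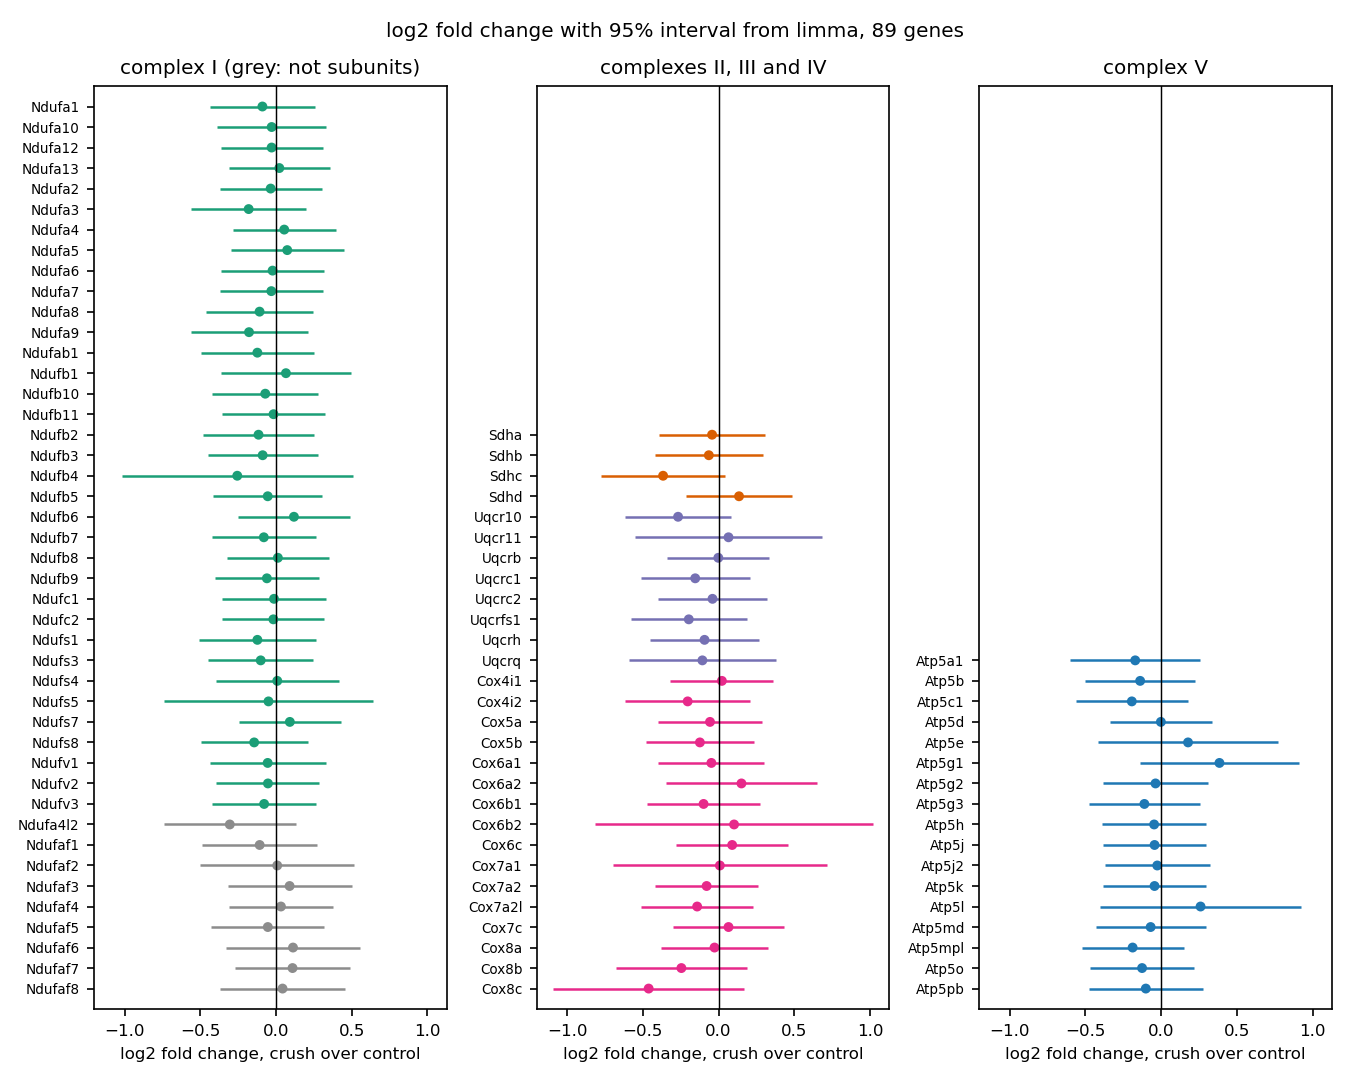
Each point is the log2 fold change of 1 gene (crush over control, 3 pairs) and each line its 95% interval from limma, with complexes in separate colours and complex I genes that are not subunits in grey. All 89 intervals span 0, and the widest belong to Cox6b2 and Ndufb4.

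The subunits varied little from eye to eye. Among control eyes the median SD of a subunit was 0.063 on the log2 scale, against 0.147 over all genes. A log2 fold change within 0.2 of 0 was found for 72 of the 80 subunits, and for 64.9% of all genes. The spread of all genes was also smaller at high signal, and 67 subunits had a mean intensity of 1000 or more. Among those, 98.5% were within 0.2, against 79.6% of all genes of 1000 or more. The signal was not matched, with a median intensity of 6441 for those subunits and 2394 for those genes. Among the 13 dimmer subunits the share within 0.2 was 46.2%, against 55.5% of dim genes. Intensities of the subunits reached 15276, where the highest value on any array was 19391, and the response of bright probe sets near the top of the scale was not tested.

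**Figure D2:**
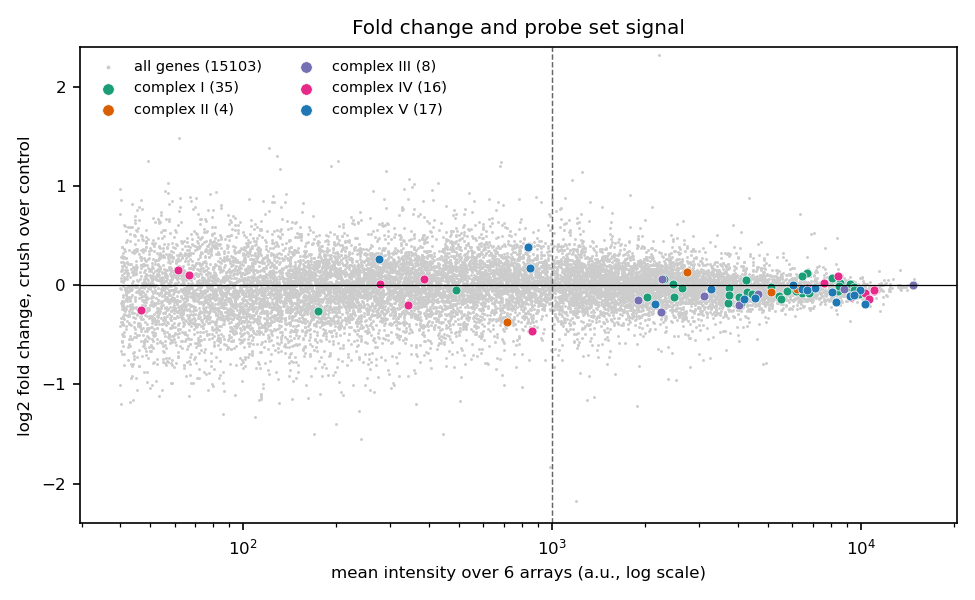
Each grey point is 1 of 15103 genes and each coloured point 1 of 80 subunits; the x axis is the mean intensity over 6 arrays (log scale), the y axis the log2 fold change of crush over control, and the dashed line marks an intensity of 1000. Bright subunits lie in a narrow band around 0 (98.5% within 0.2), and the 13 dim ones spread more (46.2% within 0.2).

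Promoters of the family were read for the motifs of its known regulators. NRF1, the ETS factor GABP and YY1 bind many promoters of respiratory subunits. The RefSeq promoters (GRCm38.p6, 250 bases before to 50 after a start) held entries for 66 of the 80 subunits. The letters GCGCATGC (NRF1), CCGGAAGT (ETS) and AAGATGGC (YY1) were searched on both strands, and none of these words contains another. The NRF1 letters lay in 9 subunit promoters (13.6%), against 5.22% of 12033 measured genes with a promoter. The ETS letters lay in 5 (7.58%), against 7.54%, and the YY1 letters in 9 (13.6%), against 4.46%. Any of the motifs lay in 22 subunits (33.3%), against 1922 of the measured genes, counting a gene with several starts once if any start held it. The median log2 fold change was -0.043 for subunits with a motif and -0.056 for the 44 without.

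Promoters of 4 subunits are printed to show each motif in place. That of Sdhb holds the NRF1 letters, that of Uqcr11 both the NRF1 and the ETS letters, and that of Ndufs7 the YY1 letters just after the start, while that of Uqcr10, whose groups did not overlap, holds none of them. Capitals mark the motif. The windows are chr4:140961021-140961320 (+ strand) for Sdhb, chr10:80406772-80407071 (- strand) for Uqcr11, chr10:80249199-80249498 (+ strand) for Ndufs7 and chr11:4704295-4704594 (- strand) for Uqcr10, each read on the strand of its gene.
Sdhb: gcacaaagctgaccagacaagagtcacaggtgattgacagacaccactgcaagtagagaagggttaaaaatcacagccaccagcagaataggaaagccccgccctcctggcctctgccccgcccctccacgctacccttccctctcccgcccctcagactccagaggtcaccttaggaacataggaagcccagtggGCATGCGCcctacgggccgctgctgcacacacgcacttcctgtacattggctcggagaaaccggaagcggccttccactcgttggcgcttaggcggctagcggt
Uqcr11: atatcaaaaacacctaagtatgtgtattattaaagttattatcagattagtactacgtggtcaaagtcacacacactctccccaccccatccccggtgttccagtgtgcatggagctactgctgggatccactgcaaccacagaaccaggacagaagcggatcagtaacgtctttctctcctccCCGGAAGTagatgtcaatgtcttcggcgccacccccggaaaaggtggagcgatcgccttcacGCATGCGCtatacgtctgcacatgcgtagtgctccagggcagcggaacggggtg
Ndufs7: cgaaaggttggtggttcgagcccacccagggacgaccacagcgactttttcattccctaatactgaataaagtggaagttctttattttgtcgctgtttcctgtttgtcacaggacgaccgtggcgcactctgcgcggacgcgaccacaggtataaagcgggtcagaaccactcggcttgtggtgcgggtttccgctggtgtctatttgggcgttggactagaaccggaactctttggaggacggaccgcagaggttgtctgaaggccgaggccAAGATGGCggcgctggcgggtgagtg
Uqcr10: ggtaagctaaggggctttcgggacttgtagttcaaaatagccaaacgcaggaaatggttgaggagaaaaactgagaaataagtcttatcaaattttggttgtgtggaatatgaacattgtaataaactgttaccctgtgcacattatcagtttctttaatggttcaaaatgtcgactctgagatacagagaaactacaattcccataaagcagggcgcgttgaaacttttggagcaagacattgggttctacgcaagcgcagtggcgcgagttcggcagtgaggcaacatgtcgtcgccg

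Complex I, NADH dehydrogenase, is the largest of the complexes, and its 35 subunits had a median log2 fold change of -0.053. Of these, 8 were above and 27 below 0 (all genes 54.3% below 0), and 34 lay within 0.2 of 0. Its core subunits carry the flavin and the iron-sulphur clusters, and 6 of them (Ndufs1, Ndufs3, Ndufs7, Ndufs8, Ndufv1 and Ndufv2) had a median of -0.078. The 29 accessory subunits had a median of -0.035.

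Ndufs8, which holds iron-sulphur clusters of the electron path to coenzyme Q, had intensities of 5933, 4779 and 5084 in crush eyes 1 to 3 and 6026, 5765 and 5600 in control eyes 1 to 3. Every crush eye was lower than its paired eye, but the groups overlapped. Its log2 fold change was -0.14 ± 0.14 (SE, n = 3 pairs, limma adjusted p = 0.772), or -0.081 without pair 2. Other Ndufs8 probe sets ran from -0.17 to 0.027. In most of them the crush eye of pair 1 was higher than its partner, by 0.017 to 0.18 on the log2 scale. Ndufs7, another core subunit, had 6676, 6046 and 7208 in crush eyes and 6232, 5615 and 6872 in control eyes. Here every crush eye was higher than its paired eye, by 0.099, 0.11 and 0.069 on the log2 scale, and the fitted value was 0.092 ± 0.13 (SE, n = 3 pairs, limma adjusted p = 0.852). Ndufa13, an accessory subunit also known as Grim19, was steadier still, with 8575, 8532 and 8868 in crush eyes and 8415, 8453 and 8711 in control eyes. Ndufa4, long listed with complex I and now regarded as a subunit of complex IV, had a log2 fold change of 0.055.

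The dimmer complex I subunits spread more. Ndufb4, an accessory membrane arm subunit, had 179, 73.6 and 257 in crush eyes and 192, 156 and 193 in control eyes. Only the crush eye of pair 2 stood clearly below its partner, and that of pair 3 stood above. Ndufs5 had 538, 530 and 370 in crush eyes and 448, 402 and 651 in control eyes, higher in pairs 1 and 2 and lower in pair 3.

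The 8 complex I assembly factors, which build the complex and leave it, had a median of 0.038, with 6 above and 2 below 0. The values ran from -0.11 for Ndufaf1 to 0.11 for Ndufaf6. Ndufa4l2, known to be raised by hypoxia and to restrain complex I activity, had 240, 170 and 306 in crush eyes and 288, 263 and 310 in control eyes. Every crush eye was lower than its partner, with log2 differences of -0.27, -0.63 and -0.018 in pairs 1 to 3. Its log2 fold change was -0.31 ± 0.17 (SE, n = 3 pairs, limma adjusted p = 0.664). Without the crush array of pair 3 it was -0.51 and nominally lower, at an adjusted p no lower than 0.684, and without that of pair 2 it was -0.080 and not nominal.

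Complex II, succinate dehydrogenase, also belongs to the citric acid cycle and is made of 4 nuclear-encoded subunits. Sdha and Sdhb are the catalytic flavoprotein and iron-sulphur subunits, and Sdhc and Sdhd anchor them in the membrane. The anchors had values of opposite sign. Sdhc had 772, 546 and 564 in crush eyes and 880, 861 and 671 in control eyes. Each crush eye was below its partner, although crush eye 1 was above control eye 3. Its log2 fold change of -0.37 ± 0.16 (SE, n = 3 pairs) had the smallest p of all 89 genes, an unadjusted p of 0.069 and a limma adjusted p of 0.642, with a 95% interval of -0.77 to 0.041. Without pair 2 it was -0.22. After quantile normalization (-0.42), median scaling (-0.41) or a minimum mean of 200 (-0.37) it was nominally lower. A second Sdhc probe set read 620, 624 and 682 in crush eyes and 726, 740 and 711 in control eyes, without overlap, at a log2 fold change of -0.18.

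Sdhd had 2780, 2905 and 2896 in crush eyes and 2303, 2824 and 2713 in control eyes. Each crush eye was above its partner, and the log2 fold change was 0.14 ± 0.14 (SE, n = 3 pairs, limma adjusted p = 0.783), or 0.067 without pair 1. The other Sdhd probe set had the opposite sign, at -0.41, with 817, 525 and 936 in crush eyes and 1022, 1088 and 851 in control eyes, so the direction of Sdhd depended on the probe set. The catalytic subunits were closer to 0. Sdha had 6379, 5961 and 5976 in crush eyes and 6176, 6614 and 6080 in control eyes (log2 fold change -0.043), and Sdhb had 5450, 4509 and 5054 in crush eyes and 5374, 5236 and 5043 in control eyes (log2 fold change -0.064). For both, the crush eye of pair 2 was the lowest of the group.

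Complex III, the cytochrome bc1 complex, had 7 of 8 subunits below 0 (all genes 54.3%) and a median of -0.100. Uqcr10, a small subunit beside cytochrome c1, was 1 of 2 members whose groups did not overlap. Its promoter is the one printed without a motif. It had 2193, 1773 and 2171 in crush eyes and 2466, 2288 and 2608 in control eyes. All crush eyes were lower than all control eyes, at a log2 fold change of -0.27 ± 0.14 (SE, n = 3 pairs, limma adjusted p = 0.649), or -0.17 without the crush array of pair 2. Among all genes, 804 (5.32%) had all crush arrays below all control arrays and 860 (5.69%) had them above, against 2 and 0 of the 89 members. One other Uqcr10 probe set was nominally lower, with 267, 174 and 225 in crush eyes and 290, 274 and 316 in control eyes (log2 fold change -0.42, limma adjusted p = 0.642). The remaining one had -0.31, with only pair 3 lower.

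Uqcrfs1, the Rieske iron-sulphur protein, had 4357, 3468 and 3492 in crush eyes and 4497, 4665 and 3785 in control eyes. Crush eyes were lower in every pair, with the widest gap in pair 2, and the log2 fold change was -0.20 ± 0.15 (SE, n = 3 pairs, limma adjusted p = 0.724), or -0.081 without pair 2. Uqcrc1 and Uqcrc2, the core proteins, had log2 fold changes of -0.15 and -0.040. Uqcrb, a small subunit of the matrix side, had 15276, 14638 and 14364 in crush eyes and 14982, 14877 and 14455 in control eyes, with log2 differences of 0.028, -0.023 and -0.0091 in pairs 1 to 3. Uqcr11 varied more from eye to eye, at 2269, 2609 and 2017 in crush eyes and 2078, 1715 and 2922 in control eyes, with pairs 1 and 2 higher and pair 3 lower.

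**Figure D3:**
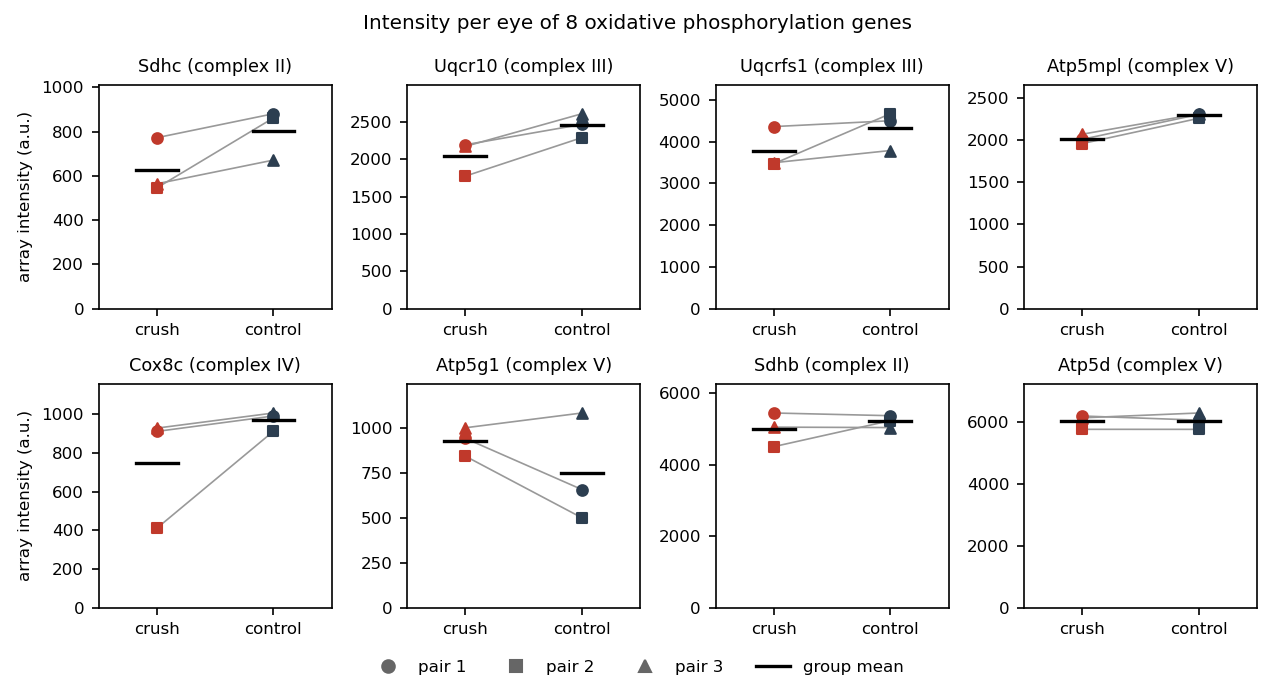
Array intensity (arbitrary units, axis from 0) of 8 genes in each crush eye (red, left) and its paired control eye (dark, right), with lines joining a pair and bars at the group means. Uqcr10 and Atp5mpl are the genes whose groups do not overlap; Cox8c is low in 1 crush eye, and Atp5g1 is higher in the crush eye of pairs 1 and 2 only.

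Complex IV, cytochrome c oxidase, is assembled with alternative isoforms of several subunits that differ between tissues. Its 16 genes had a median log2 fold change of -0.052, 6 above and 10 below 0 (all genes 54.3% below 0). The 10 ubiquitous subunits were all within 0.2 of 0 (median -0.052). The 6 tissue isoforms spread more (median -0.098, 3 of 6 within 0.2). They were also far dimmer, with a median intensity of 172, against 9386 for the ubiquitous subunits. Of all genes with a mean intensity under 1000, 55.5% were within 0.2. Isoform class and signal were not separated.

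Cox4i1, the common isoform of the regulatory subunit 4, had 7876, 6813 and 8332 in crush eyes and 7390, 6889 and 8388 in control eyes (log2 fold change 0.022). Cox4i2, the lung isoform known to be raised by low oxygen, had 347, 295 and 312 in crush eyes and 327, 353 and 424 in control eyes (log2 fold change -0.20 ± 0.16, SE, n = 3 pairs, limma adjusted p = 0.731, and -0.086 without pair 3). The groups overlapped for both isoforms. Cox6a1 and Cox6b1, the broadly expressed isoforms, had log2 fold changes of -0.047 and -0.099, and their partners Cox6a2 of heart and muscle and Cox6b2 of testis had 0.15 and 0.10. Both of these tissue isoforms read near the minimum signal. Cox6a2 had 67.8, 81.6 and 46.1 in crush eyes and 73.6, 53.0 and 47.7 in control eyes. Cox6b2 had 72.1, 94.4 and 42.9 in crush eyes and 56.7, 50.4 and 82.6 in control eyes, higher in pairs 1 and 2 and lower in pair 3. Without pair 3 its log2 fold change was 0.63 and nominally higher, and without pair 2 it was -0.30 and not nominal.

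Cox7a2, the liver-type isoform found in most tissues, had 10437, 9946 and 9795 in crush eyes and 10412, 10761 and 10691 in control eyes (log2 fold change -0.079). Cox7a1, the heart and muscle isoform, had 335, 285 and 211 in crush eyes and 272, 201 and 362 in control eyes (log2 fold change 0.0087). Cox7a2l had 11097, 8899 and 10433 in crush eyes and 11149, 11266 and 11001 in control eyes. The crush eye of pair 2 was the low one, and the log2 fold change was -0.14 ± 0.15 (SE, n = 3 pairs, limma adjusted p = 0.785), or -0.042 without pair 2. Its other 2 probe sets gave -0.42 and -0.58, again lowest in that eye, and neither was nominal. Both were lower in the crush eye of all 3 pairs. The probe set at -0.58 read 5264, 2412 and 4206 in crush eyes and 5568, 5821 and 5507 in control eyes, without overlap.

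Cox8a, the common isoform of the smallest subunit, had 7076, 6158 and 6746 in crush eyes and 6920, 6864 and 6539 in control eyes (log2 fold change -0.026). Cox8b, the heart and muscle isoform, read 42.1, 32.4 and 55.1 in crush eyes and 57.1, 42.8 and 51.3 in control eyes, close to the minimum. Cox8c, known from testis, had 912, 412 and 929 in crush eyes and 992, 913 and 1007 in control eyes. It was below its partner in every pair, but the difference of pair 2 was -1.15 and those of pairs 1 and 3 were -0.12 and -0.12. The fitted log2 fold change was -0.46 ± 0.25 (SE, n = 3 pairs, limma adjusted p = 0.654), and over the settings that left out 1 pair or 1 crush array it ran from -0.66 to -0.075. A second Cox8c probe set read 303, 224 and 326 in crush eyes and 343, 394 and 391 in control eyes, without overlap, at a log2 fold change of -0.42 (limma adjusted p = 0.642).

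Complex V, the ATP synthase, had 14 of 17 subunits below 0 (all genes 54.3%) and a median of -0.046. The F1 head makes ATP, and its 5 subunits had a median of -0.14, with 4 below and 1 above 0. Atp5c1, the central stalk subunit that turns inside the head, had 11104, 8832 and 9017 in crush eyes and 11294, 11424 and 10248 in control eyes. Crush eyes were lower in every pair, at a log2 fold change of -0.19 ± 0.15 (SE, n = 3 pairs, limma adjusted p = 0.719), or -0.10 without pair 2. Atp5b, the catalytic beta subunit, had 4570, 3573 and 3877 in crush eyes and 4463, 4249 and 4452 in control eyes (log2 fold change -0.14). Atp5d, the delta subunit, had 6192, 5762 and 6133 in crush eyes and 6058, 5761 and 6289 in control eyes, with no difference beyond 0.036 in any pair on the log2 scale. Atp5e had a log2 fold change of 0.18, with crush eyes higher in pairs 1 and 2 and lower in pair 3. Atp5a1 had -0.17, and its other probe sets had -0.21 and 0.30. The Atp5a1 probe set at 0.30 was higher in the crush eye of all 3 pairs.

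The c ring, the rotor in the membrane, is made of identical proteins encoded by 3 genes. Atp5g1 had 941, 842 and 999 in crush eyes and 657, 500 and 1081 in control eyes. The crush eyes of pairs 1 and 2 were higher by 0.52 and 0.75 on the log2 scale, and that of pair 3 differed by -0.11. Its log2 fold change of 0.39 ± 0.21 (SE, n = 3 pairs, limma adjusted p = 0.653) was the highest of the 89 genes, and without pair 3 it was 0.63 and nominally higher, while without pair 2 it was 0.20 and not nominal. Atp5g2 had 3197, 3233 and 3260 in crush eyes and 3356, 3093 and 3505 in control eyes (log2 fold change -0.037). Atp5g3 had 9375, 8254 and 9050 in crush eyes and 9815, 10053 and 8929 in control eyes (log2 fold change -0.11). All 3 genes overlapped between groups.

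Atp5mpl, a small membrane subunit, was the other gene whose groups did not overlap. It had 2012, 1961 and 2073 in crush eyes and 2308, 2261 and 2316 in control eyes. Every crush eye was lower than every control eye, by a similar step of -0.20, -0.21 and -0.16 in pairs 1 to 3. The log2 fold change was -0.19 ± 0.13 (SE, n = 3 pairs, limma adjusted p = 0.705), and its 95% interval of -0.52 to 0.15 spanned 0 because limma raised its small residual spread towards that of all genes (prior SD 0.21). Such shrinkage acted on most members: 72 of 89 had a residual SD under that prior. The 4 peripheral stalk subunits were all below 0, with a median of -0.074.

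Differences of the same sign in all pairs were counted next. Of the 89 genes, 3 (Sdhd, Ndufs7 and Ndufa13) were higher in the crush eye of all 3 pairs, against 2292 of all genes (15.2%). Lower in all 3 pairs were 13 members, against 2271 of all genes (15.0%). Those 13 were Ndufs3, Ndufs8, Ndufv3, Ndufa4l2, Sdhc, Uqcr10, Uqcrfs1, Cox7a2l, Cox8c, Atp5c1, Atp5j, Atp5mpl and Atp5o.

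The pairs differed from each other. The median log2 difference of the 80 subunits was 0.030 for pair 1, and -0.10 for both other pairs. The median of all genes was 0.014, -0.10 and 0.044 in the same pairs. The subunits thus lay at the median of all genes in pairs 1 and 2 (by 0.016 and -3.5e-05) and below it only in pair 3, by -0.14. In pair 3, 65 of 80 subunits were lower in the crush eye, against 6460 of 15103 genes. Complex III showed the widest gap in pair 3, with a median of -0.26, while complex II had -0.011 there and its lowest value, -0.18, in pair 2. Pair 2, which holds that dimmest array, had the widest spread, with an SD over the subunits of 0.34, against 0.13 in pair 1 and 0.21 in pair 3. Over all genes pair 2 was also the widest, at 0.54, against 0.25 in pair 1 and 0.36 in pair 3. In pair 2 the SD was 0.19 for the 67 subunits with a mean intensity of 1000 or more, and 0.74 for the 13 dimmer ones. Without the crush array of pair 2 the subunit median was -0.026, with 55 of 80 below 0 and 0 members nominal in either direction. It was -0.11 without pair 1, -0.038 without pair 2 and -0.040 without pair 3.

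**Figure D4:**
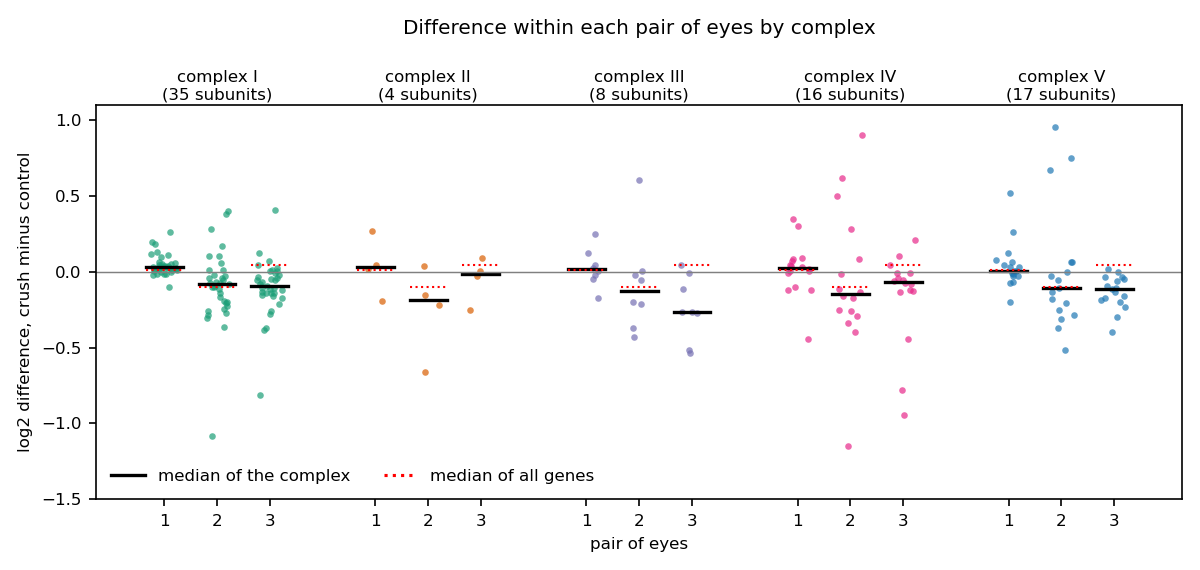
Each point is the log2 difference (crush minus control) of 1 subunit in 1 pair of eyes, grouped by complex and pair 1 to 3; black bars are medians of the complex and red dotted bars medians of all genes. In pair 1 every complex median lies between 0.0077 and 0.033, while in pairs 2 and 3 all of them lie below 0.

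Markers of other cells differed between the eyes of a pair as well. The median log2 difference of the 12 rod markers was -0.21, 0.18 and 0.74 in pairs 1 to 3, and that of the 16 RGC markers 0.21, -0.21 and -0.12. All 12 rod markers were higher in the crush eye of pair 3. The 15 Muller cell markers had medians of -0.27, -0.13 and -0.069, and the 9 cone markers -0.26, -0.030 and 0.89. The 10 bipolar cell markers had -0.17, -0.44 and -0.084, with 9 below 0 in the fit and 3 nominally lower, and the 14 amacrine cell markers had -0.062, -0.36 and 0.031, with 12 below 0 and 0 nominal. The 6 lens markers had -0.39, -1.27 and 0.064, with 2 nominally lower. The subunits and the RGC markers were thus both above 0 in pair 1 and below 0 in pairs 2 and 3, over only 3 pairs. In pairs 1 and 2 the median of all genes had the same signs (0.014 and -0.10), and in pair 3 it was 0.044. The part of cell content in the subunits' differences was not tested.

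**Figure D5:**
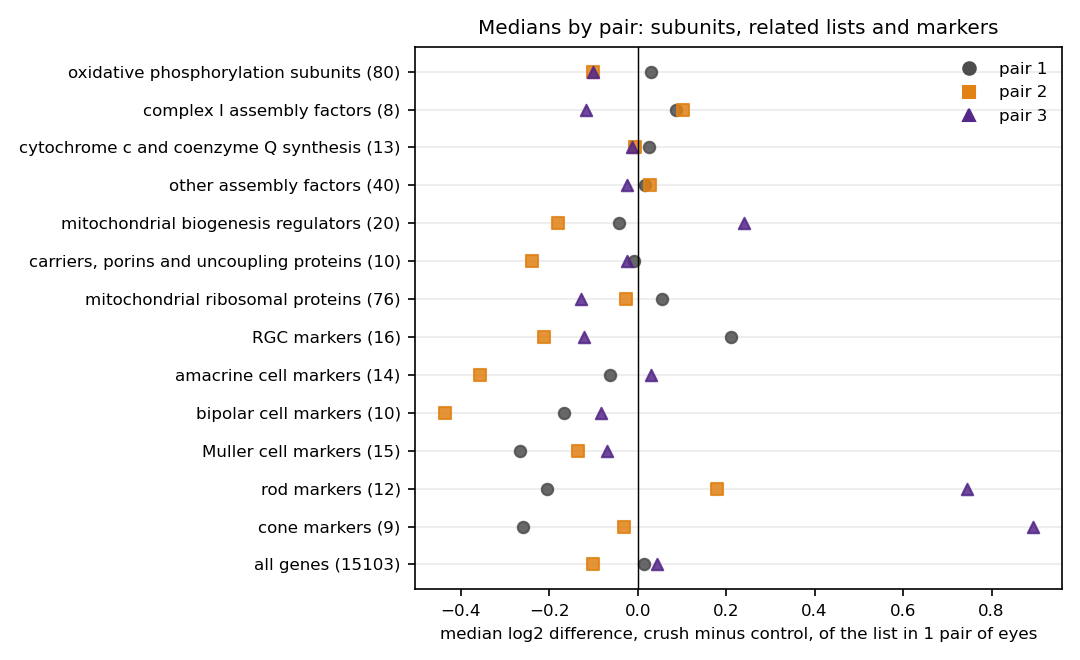
Each symbol is the median log2 difference (crush minus control) of 1 gene list in 1 pair of eyes, with the number of genes in brackets. The subunit medians stay between -0.10 and 0.030, while the rod marker medians run from -0.21 to 0.74.

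Other genes of the pathway gave few nominal values. Of the subunits encoded in mitochondrial DNA, 1 (ND5) was kept, with 13748, 11815 and 14132 in crush eyes and 13860, 13324 and 13574 in control eyes (log2 fold change -0.042). Cytochrome c and the genes of coenzyme Q synthesis, the mobile carriers between complexes, had 0 of 13 nominal in either direction and a median of -0.023. In that list Cycs, cytochrome c itself, had 10155, 7085 and 10233 in crush eyes and 9705, 9035 and 10699 in control eyes, and Cyc1, the cytochrome c1 subunit of complex III whose symbol lies outside the rule, had a log2 fold change of 0.069. Of 40 kept assembly factors outside the rule, 1 was nominally higher and 1 nominally lower. Ttc19, a factor of complex III, had 1211, 1305 and 3033 in crush eyes and 1107, 870 and 1699 in control eyes (log2 fold change 0.52, limma adjusted p = 0.642). Lyrm7, which helps insert the Rieske protein, had 81.8, 64.3 and 63.3 in crush eyes and 115, 80.4 and 77.7 in control eyes (log2 fold change -0.37, limma adjusted p = 0.642).

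The regulators of mitochondrial biogenesis had 0 of 20 nominal and a median of 0.042. Their pair medians were -0.041, -0.18 and 0.24, and the smallest p was that of Esrra, a nuclear receptor that drives mitochondrial genes, with 80.0, 157 and 170 in crush eyes and 107, 74.6 and 79.2 in control eyes. Ppargc1a, the coactivator of these genes, had 2316, 1766 and 2214 in crush eyes and 2366, 2180 and 1646 in control eyes (log2 fold change 0.031). The 10 carriers, porins and uncoupling proteins kept, which move ATP, phosphate and protons across the mitochondrial membranes, had 0 nominal and a median of -0.13, with 8 below 0. The 76 mitochondrial ribosomal proteins had 0 nominal and a median of -0.042, and their pair medians of 0.056, -0.027 and -0.13 had the lowest value in pair 3, as did those of complexes I, III and V.

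Other probe sets of the same genes were read as a check within genes. There were 82 tested, for 48 of the genes, and 62 lay within 0.2 log2 units of the brightest one. At the level of probe sets, 1713 of 33169 (5.16%) were nominally higher and 833 (2.51%) nominally lower. Of the 82, 3 were nominally higher and 1 nominally lower, all with a mean intensity under 1000. The higher ones were a Cox6a2 probe set (58.8, 74.8 and 41.9 in crush eyes, 39.8, 35.1 and 33.2 in control eyes, log2 fold change 0.66), a Sdha probe set (314, 487 and 537 in crush eyes, 285, 248 and 259 in control eyes, log2 fold change 0.72) and a Ndufab1 probe set (150, 199 and 306 in crush eyes, 131, 126 and 103 in control eyes, log2 fold change 0.81). The limma adjusted p of each was 0.642. For Sdha and Ndufab1 the brightest probe sets read -0.043 and -0.12, so these genes had no single value across probe sets. Of the 52 other probe sets with a mean of 1000 or more, 0 were nominal.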

How the data were processed

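RNA of the laser-captured retinal ganglion cell layer was measured on 6 Affymetrix Mouse 430 2.0 arrays. Per the study's methods, the authors scaled the arrays in dChip with an invariant set and deposited linear intensity values per probe set, from its model of perfect match and mismatch probes. The RNA was amplified before labelling, which favours 3′ ends. Probe sets were named from the platform annotation. Of 45101, 34958 carried 1 symbol, 9211 had no entry, and 932 with several symbols were left unnamed (10 of them list a member, and of the 8 tested, 0 were nominal). Values were floored at 16 and taken to log2, and 33169 probe sets averaging 40 or more were fitted with limma 3.58.1 in R 4.3.3, with the pair of eyes as a block and Benjamini-Hochberg adjustment over all of them. Each gene is represented by its brightest probe set. Eyes with the same number in the labels were taken as pairs, since their residuals correlated at 0.15, 0.13 and 0.30, although crush eye 1 also correlated with control eye 2, at 0.13. Members, gene lists and tests were chosen with earlier results of these data known. Genes given in full were the 2 with the smallest p that moved the same way in all pairs of each complex, all of complex II, and alternative isoforms; others named were chosen after their values were seen. The labels do not say whether each eye came from its own animal, so p-values measure the spread between these samples, and 3 pairs limit the precision. Promoter sequences are from RefSeq (GRCm38.p6), matched by gene identifier.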

Additional observations from a re-analysis of the deposited data

How the results depend on the processing

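The 5 complex medians and the counts of members were recomputed under 17 alternatives, and no member passed an adjusted p of 0.05 in any of them. With no replicate block, 0 members were nominally higher and 0 nominally lower, as with it, against 359 and 279 of all genes. Other probe sets and other gene lists were not refitted without the block. Nominally higher counts were 1 without an intensity filter (Ndufs7), 2 with the methods' t-test and 1 without _x_at and _s_at probe sets (Cox6a2). They were 0 to 2 when a pair or crush array was left out (2 without pair 3, Atp5g1 and Cox6b2). Of all genes, 4.17% were nominally higher without a filter, 2.56% with the t-test, 2.8% without those probe sets and 1.19% without pair 3. Nominally lower counts were 2 with a floor of 64 (Atp5mpl and Uqcr10) and 3 without a filter (Atp5mpl, Cox7b2 and Uqcr10). They were 1 each with a minimum mean of 200, quantile normalization or median scaling (Sdhc), and 1 with an intensity trend and robust prior (Uqcr10). With the t-test they were 2, and 0 to 1 when a pair or array was left out (Ndufa4l2 without crush array 3). Of all genes, 2.86% were nominally lower with a floor of 64, 3.32% without a filter and 1.83% with a minimum mean of 200. The share was 3.62% after quantile normalization, 4.63% after median scaling and 2.47% with the trend and robust prior. It was 2.33% with the t-test and 3.4% without crush array 3. The median of complex II was -0.22 without _x_at and _s_at probe sets. Leaving out a pair or crush array moved the medians of complexes I to V over -0.11 to -0.023, -0.097 to 0.011, -0.18 to -0.015, -0.11 to -0.028 and -0.090 to -0.041.

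Signs turned for some single genes. With probe sets averaged, Sdhd was -0.14 and Sdha 0.12, and Sdhd was -0.41 without _x_at and _s_at probe sets. Quantile normalization gave Cox7a1 -0.044, Cox8a 0.016 and Cox6a1 1.0e-05. Median scaling gave Cox4i1 -0.022 and Cox7a1 -0.036, and the t-test's linear scale gave Cox7a1 -0.0064. When a pair or crush array was left out, Sdha ran from -0.087 to 0.011, Sdhb from -0.11 to 0.012, Cox4i1 from -0.040 to 0.11, Cox6a1 from -0.091 to 0.016, Cox6a2 from -0.085 to 0.38, Cox6b2 from -0.30 to 0.63, Cox7a1 from -0.24 to 0.40 and Cox8a from -0.062 to 0.039. The cause was not tested.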
